A study of Mus musculus with 6 samples.

Results

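A set of 37 genes of ribosome biogenesis and the nucleolus was followed in mouse colon crypts and colon adenomas. The set was defined by gene symbol: every probe set annotated to exactly 1 of the 37 symbols was taken. Of the 37 genes, 34 had a probe set of their own, 60 probe sets in all, and 33 passed the filter on low values and were tested among 7456 genes. Dkc1, Utp15 and Nob1 had no such probe set and were not analysed here. Polr1b, a subunit of RNA polymerase I, stayed below the filter, with intensities of 79.7 and 122 on the tumor arrays, 57.0 and 88.1 on the DSS arrays and 129.6 and 78.2 on the control arrays. Of the 33 tested genes, 28 lay above the array median on all 6 arrays, and Tbl3 did so on the tumor arrays only, so it was tested through the group where it is high. Polr1a lay above the median on the 2 tumor arrays and 1 DSS array, and Rrp9 on 1 tumor and 1 control array. The filter asked for at least 2 arrays above their median, so these genes also passed only with a tumor array.

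The series holds 6 Affymetrix arrays, each hybridized with RNA pooled from 2 male mice, in 3 groups of 2. The mice of all 3 groups, controls included, were heterozygous for Lgr5-lacZ. The 2 tumor arrays each carried crypts of 12 adenomas from the distal colon. Those mice were injected with azoxymethane (AOM, a colon carcinogen) at 12.5 mg/kg when 6 to 8 weeks old. They were then given dextran sodium sulfate (DSS, which injures the colon epithelium) in the drinking water in 3 cycles of 5 days, at 2%, 1.5% and 1.0%, each followed by 14 days of water. The first cycle began 5 days after AOM, and the adenomas were collected 90 days after AOM. The 2 DSS arrays carried distal colon crypts of mice of 6 to 8 weeks on day 2 of 1% DSS, and the 2 control arrays carried such crypts from untreated mice of the same age. Adenoma formation, AOM, the DSS cycles and the mice's age at collection cannot be told apart in the tumor comparisons. The strain of the mice is not given in the sources used here, so whether the tumor mice share it with the others is unknown. The labels call the 2 arrays of a group biological replicates, so p-values measure the spread between pools of mice.

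Ribosomes are built in the nucleolus. RNA polymerase I transcribes a long precursor of ribosomal RNA (rRNA), guide RNAs in box C/D and box H/ACA particles (snoRNPs) direct methylation and pseudouridylation of it, and the small subunit processome and the large subunit assembly factors cut and fold it with ribosomal proteins. Dividing cells make ribosomes fast, and many genes of this machinery are known targets of the transcription factor MYC. In the colon, crypts hold stem and dividing cells near their base and differentiated cells towards the top. In whole crypts, more cells of a type and more RNA per cell cannot be told apart.

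The deposited values were linear signal intensities with a trimmed mean of 500.2 on each array. The array medians lay between 94.8 and 131. Poly-A control transcripts, spiked into the RNA, read 1168 on DSS array 1 and 777 on control array 1, against 312 to 394 on the other 4 arrays. All 15 pan-epithelial markers lay above the array median on all 6 arrays. The number of arrays limits the precision: every comparison sets 2 arrays against 2.

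**Figure D1:**
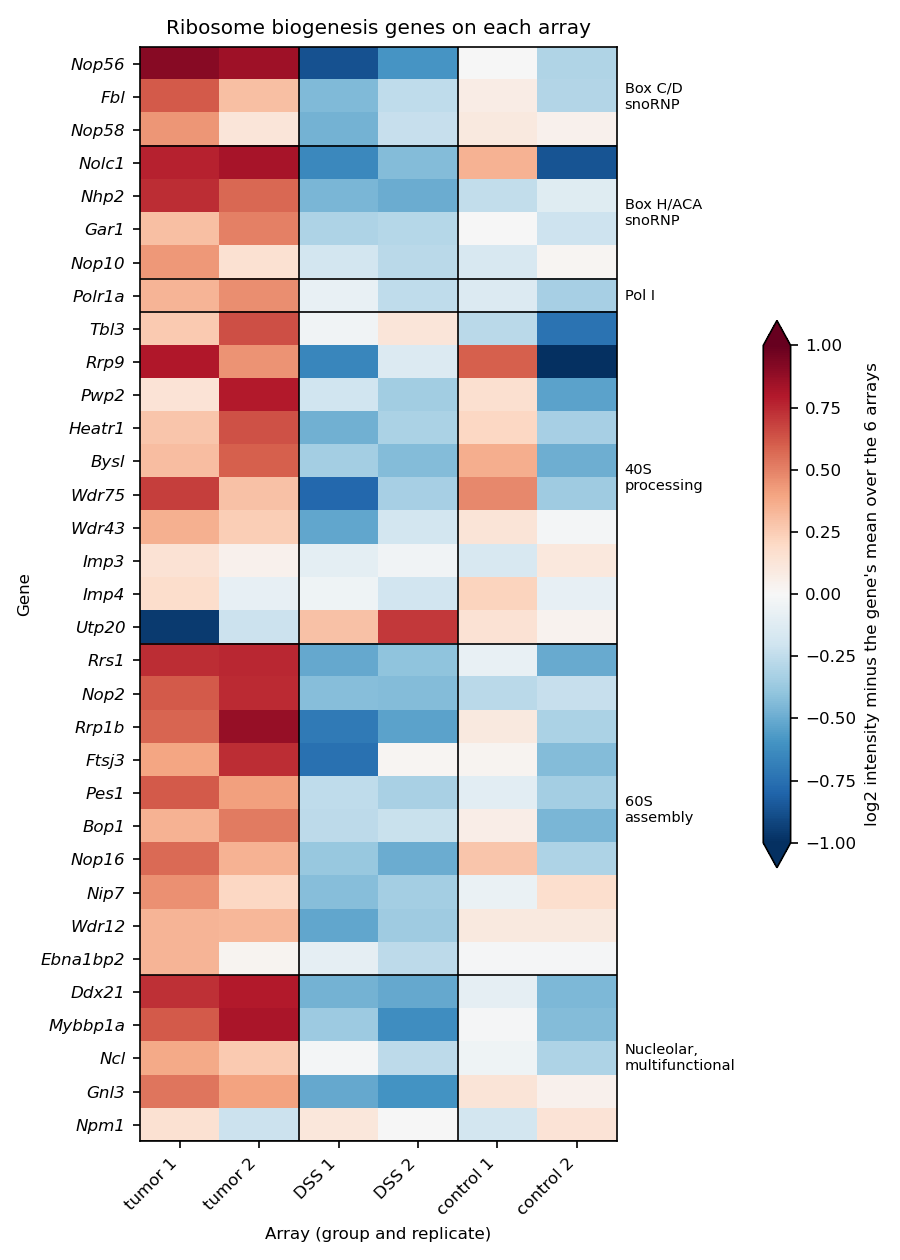
Heat map of the 33 tested genes (rows, by role) on the 6 arrays (columns). Colour gives the log2 intensity minus that gene's mean over the 6 arrays, with colours cut at -1 and 1. The 2 tumor arrays are red in most rows, Utp20 runs the other way, and Npm1 shows little difference between groups.

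The tumor arrays were first set against the control arrays to ask which genes of the machinery differ between adenoma crypts and normal crypts. Of the 33 genes, 8 were called higher in tumors, that is at an adjusted p under 0.05 by limma, 24.2% against 12.9% of all genes. None was called lower, against 9.75% of all genes, and at an unadjusted p under 0.05 the counts were 17 higher and 1 lower, against 20.1% and 16.5% of all genes. The 8 called genes were Nop56, Ddx21, Nhp2, Rrs1, Nop2, Mybbp1a, Pes1 and Rrp1b, at 1.67 to 2.05 times the control level on the log2(intensity + 17.8) scale. Both tumor arrays lay above both control arrays for 25 of the 33 genes, against 33.8% of all genes, and below them for 1 gene, Utp20, against 27.7%. The log2 change was above 0 for 30 genes. Its median over the 33 genes was 0.52, with a range of -0.68 to 1.05, beside a median of 0.05 over all genes. When each array was centred on its median, which lowers all tumor changes and puts the median of all genes at -0.20, 25 genes stayed above 0, 4 were called higher and Utp20 was called lower. The split of all calls moved with that centring to 649 higher and 1225 lower, beside 959 higher and 727 lower as deposited, and to 882 higher and 908 lower with quantile normalization.

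Among the box C/D snoRNP proteins, Nop56, a core scaffold of the particle, had intensities of 1454 and 1393 on the tumor arrays, 411 and 501 on the DSS arrays and 763 and 617 on the control arrays. Both tumor arrays were about level with each other and above all other arrays, and the DSS arrays were the lowest. The log2 change in tumors against controls was 1.03 ± 0.19 (SE, adjusted p = 0.00612), and a further Nop56 probe set gave 1.21. Nop58, the paralog that pairs with Nop56 in the same particle, read 1367 and 1090.5 on the tumor arrays, 718 and 850.3 on the DSS arrays and 1076 and 1030.5 on the control arrays. Its tumor arrays lay above its control arrays by little, with a log2 change of 0.21 ± 0.18 (SE, adjusted p = 0.445) and a 95% interval of -0.21 to 0.63. Fbl (fibrillarin), the methyltransferase of the particle, read 2813 and 2269 on the tumor arrays, 1347 and 1533 on the DSS arrays and 1930.1 and 1492 on the control arrays. The groups of tumor and control arrays did not overlap for Fbl, and its change of 0.57 ± 0.19 (SE, adjusted p = 0.0699) missed the threshold.

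Of the box H/ACA proteins, which carry the pseudouridylation guides, Nhp2 was called higher. Nhp2 read 4253 and 3789.6 on the tumor arrays, 1848 and 1795 on the DSS arrays and 2136 and 2339 on the control arrays, so the tumor arrays stood apart from the other 4. Its log2 change against controls was 0.84 ± 0.15 (SE, adjusted p = 0.00648), and a further probe set gave 0.85. Nop10, a small core protein of the particle, read 6188 and 5111 on the tumor arrays, 4038 and 3813 on the DSS arrays and 4116 and 4659.8 on the control arrays. Gar1, another core protein, read 1077 and 1246 on the tumor arrays, 703 and 712 on the DSS arrays and 871 and 754 on the control arrays. For both genes the 2 tumor arrays were the highest of the 6, with log2 changes against controls of 0.36 ± 0.16 (SE, adjusted p = 0.145) for Nop10 and 0.51 ± 0.17 (SE, adjusted p = 0.0662) for Gar1. Nolc1 (Nopp140), a chaperone of snoRNPs, read 413 and 429.6 on the tumor arrays, 144 and 169 on the DSS arrays and 304 and 121 on the control arrays. The 2 control arrays of Nolc1 were far apart, and its log2 change of 1.05 ± 0.35 (SE, adjusted p = 0.0675) missed the threshold although it was the highest of the 33.

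For RNA polymerase I, Polr1a, its largest subunit, had low intensities of 137 and 150.1 on the tumor arrays and 93.0 and 78.8 on the control arrays, and the difference was 0.64 ± 0.26 (SE, adjusted p = 0.110) on the log2 scale, short of the threshold. Of the 10 tested genes of the small subunit processome and small subunit maturation, 0 passed limma's test in tumors against controls, 1 was higher and 1 lower at an unadjusted p under 0.05, and 8 had a change above 0. Tbl3, a WD-repeat protein of the processome, had the highest change of the 10, with 115 and 155 on the tumor arrays and 74.0 and 48.7 on the control arrays. Its log2 change was 0.96 ± 0.30 (SE, adjusted p = 0.0528). Heatr1, a large scaffold of the processome, read 405 and 523 on the tumor arrays, 231 and 263 on the DSS arrays and 385 and 259.7 on the control arrays, and Wdr43, a further WD-repeat subunit, read 547 and 505 on the tumor arrays, 291 and 370.2 on the DSS arrays and 465 and 417 on the control arrays. Their tumor arrays were the highest of the 6, at log2 changes of 0.52 and 0.25 against controls that missed the threshold. Wdr75, which acts with Wdr43 in the same subcomplex, read 1211 and 916 on the tumor arrays, 424 and 588 on the DSS arrays and 1042 and 578 on the control arrays. Here control array 1 lay between the 2 tumor arrays, so the groups overlapped. Imp3 and Imp4, which bind the U3 snoRNA particle, had changes of 0.13 and -0.02 and overlapping groups. Pwp2, Rrp9 and Bysl, all processome or late small subunit factors, had changes of 0.51 to 0.85 with overlapping groups, and Rrp9 had an SE of 0.52.

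Utp20, a large scaffold of the processome, ran against the others. It read 328 and 560.0 on the tumor arrays, 804 and 1078 on the DSS arrays and 727 and 669 on the control arrays, so both tumor arrays were the lowest and both DSS arrays the highest. The log2 change in tumors against controls was -0.68 ± 0.26 (SE, adjusted p = 0.102), and without tumor array 2 it was called lower.

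Of the 10 large subunit assembly genes, 4 were called higher in tumors, and all 10 had a change above 0. Rrs1, an early large subunit factor, read 1192 and 1201 on the tumor arrays, 489 and 529 on the DSS arrays and 668 and 494 on the control arrays. Nop2, an rRNA cytosine methyltransferase, read 397 and 436 on the tumor arrays, 184 and 183 on the DSS arrays and 206 and 213 on the control arrays. The tumor arrays stood above all others for both, with log2 changes against controls of 1.04 ± 0.19 (SE, adjusted p = 0.00660) for Rrs1 and 0.93 ± 0.18 (SE, adjusted p = 0.00917) for Nop2. Pes1, a subunit of the PeBoW complex with Bop1 and Wdr12, read 784 and 680.3 on the tumor arrays, 421 and 401 on the DSS arrays and 469 and 396 on the control arrays. Its tumor arrays were again the highest, with a log2 change of 0.74 ± 0.18 (SE, adjusted p = 0.0209). A further Pes1 probe set, below the filter, went the other way at -0.32. It read 91.4 and 72.0 on the tumor arrays and 120.7 and 92.6 on the control arrays. Bop1 had 327 and 370.5 on the tumor arrays and 266 and 179.5 on the control arrays, and its change of 0.63 ± 0.23 (SE, adjusted p = 0.0820) missed the threshold. Wdr12 read 350.5 and 349 on the tumor arrays, 185 and 209 on the DSS arrays and 294 and 294 on the control arrays, with the DSS arrays apart below both other groups. It had 0.24 ± 0.18 (SE, adjusted p = 0.381) on the log2 scale in tumors against controls. Rrp1b, a nucleolar rRNA processing factor, read 257 and 319 on the tumor arrays, 95.3 and 109 on the DSS arrays and 179.6 and 130.4 on the control arrays. Its tumor arrays were the highest and its DSS arrays the lowest, with a log2 change against controls of 0.83 ± 0.24 (SE, adjusted p = 0.0423). Nop16, a further assembly factor, read 588 and 503 on the tumor arrays, 297 and 273 on the DSS arrays and 479 and 313 on the control arrays, and Nip7, which binds the pre-ribosomal large subunit, read 1117 and 937 on the tumor arrays, 599.7 and 638 on the DSS arrays and 774 and 915 on the control arrays. The tumor arrays were the highest for both, at log2 changes of 0.47 and 0.28 that missed the threshold. Ftsj3, an rRNA methyltransferase, and Ebna1bp2, a further assembly factor, had changes of 0.77 and 0.20, with no overlap between tumor and control arrays.

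Of the 5 multifunctional nucleolar proteins, 2 were called higher in tumors. Ddx21, a nucleolar RNA helicase, read 760.2 and 793 on the tumor arrays, 321 and 312 on the DSS arrays and 423 and 326 on the control arrays. Mybbp1a, a regulator of rRNA transcription, read 1932 and 2226 on the tumor arrays, 971 and 812 on the DSS arrays and 1244 and 925 on the control arrays. Both tumor arrays lay well above the other 4 for both genes, with log2 changes against controls of 1.03 ± 0.19 (SE, adjusted p = 0.00629) for Ddx21 and 0.94 ± 0.20 (SE, adjusted p = 0.0127) for Mybbp1a. Gnl3 (nucleostemin), a nucleolar GTPase found in stem and dividing cells, read 1327 and 1208 on the tumor arrays, 631 and 593 on the DSS arrays and 997 and 936 on the control arrays. The 3 groups of Gnl3 did not overlap, with the DSS arrays lowest, and its log2 change in tumors against controls was 0.38 ± 0.16 (SE, adjusted p = 0.122). Ncl (nucleolin), a major RNA-binding protein of the nucleolus, had 5861 and 5397 on the tumor arrays and 4364 and 3632 on the control arrays and a change of 0.50 ± 0.17 (SE, adjusted p = 0.0653). Npm1 (nucleophosmin), a histone and ribosome chaperone, read 10834 and 8418 on the tumor arrays, 10537 and 9720.4 on the DSS arrays and 8569 and 10747 on the control arrays, and all groups overlapped. Its log2 change in tumors against controls was -0.01 with a 95% interval of -0.42 to 0.41, and its further probe set gave 0.02.

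**Figure D2:**
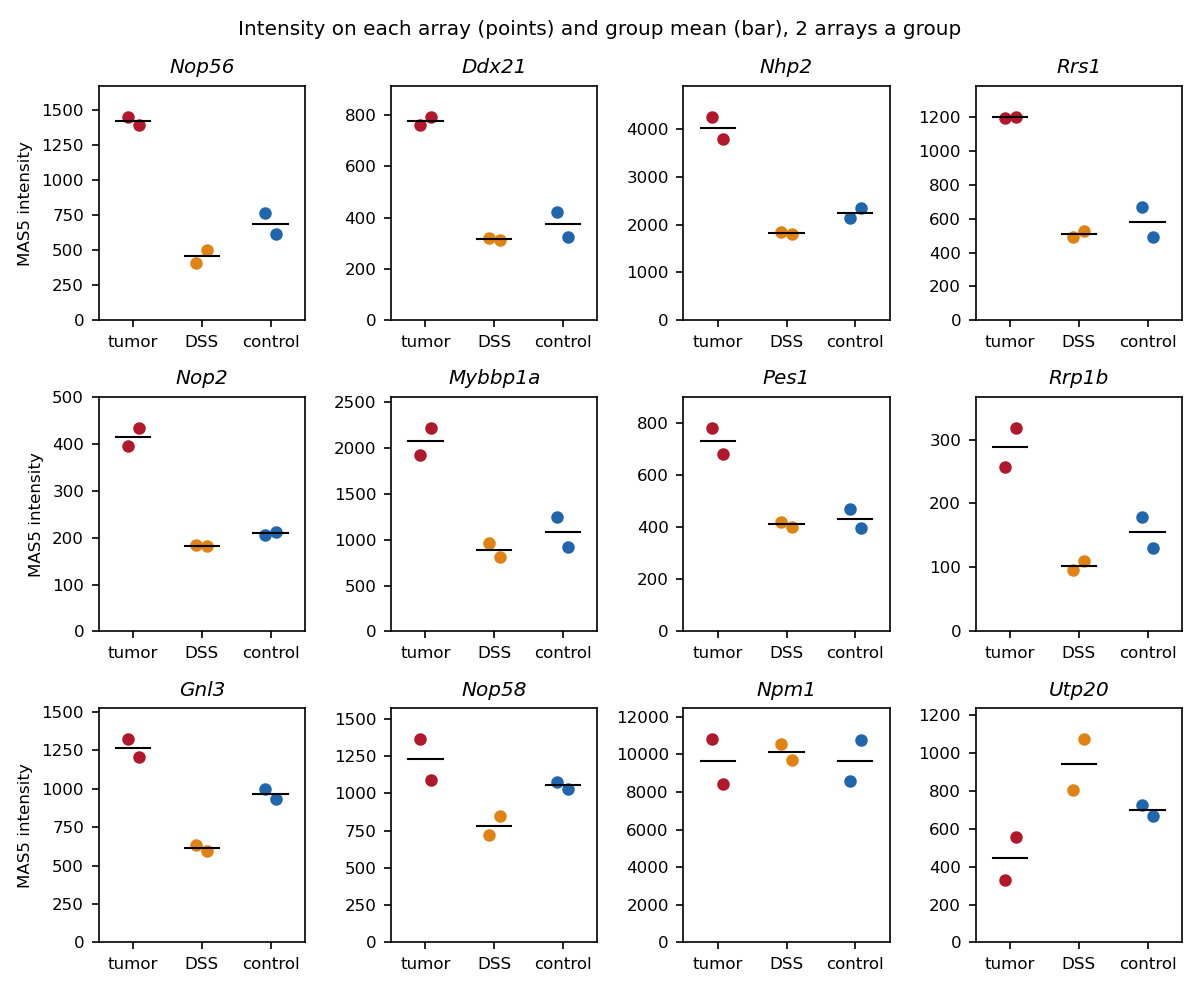
Signal intensity (y axis, from 0) of 12 genes on each array, with points for arrays and bars for group means, in tumor, DSS and control groups of 2 arrays. The first 8 panels are the genes called higher in tumors against controls, with both tumor arrays above all other arrays; Gnl3 and Nop58 are lowest on the DSS arrays, Npm1 overlaps, and Utp20 is lowest on the tumor arrays.

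Nop56, Ddx21 and Rrs1 were called higher in tumors against controls under every alternative run, 3 of the 8. The other 5 calls each ended under at least 1 alternative. Centring each array on its median ended those of Nhp2 (0.59), Mybbp1a (0.69), Pes1 (0.49) and Rrp1b (0.58). Without tumor array 2 the calls of Nop2 (0.87), Mybbp1a (0.84) and Rrp1b (0.69) were lost, and without tumor array 1 those of Pes1 (0.64) and Rrp1b (0.98). Without control array 2 Mybbp1a (0.73), Pes1 (0.62) and Rrp1b (0.62) missed the threshold. Rrp1b also missed it without control array 1 (1.04) and without either DSS array (0.83 each). Its call was lost as well with quantile normalization (0.66), with no filter (0.83), with the mean over probe sets (0.76), with only the 2 groups compared (0.83) and with a term for the arrays of high poly-A readings (0.89), and it held in 6 of 18 settings.

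The promoters of 8 genes are shown, mainly of genes called higher in tumors. They are the 6 called genes with an entry and the smallest p, Nop58, the paralog of Nop56, and Utp20, which was added after its values were seen. Each window runs from 250 bases before to 50 bases after the annotated start (RefSeq, GRCm38.p6), 5′ to 3′ on the gene's strand. Capitals mark a match to the E-box CACGTG, the motif that MYC and MAX bind, or to CCGGAAGT, a motif of ETS factors, each searched on both strands, and no window shown holds both.
Nop56 (chr2:130274162-130274461, plus strand): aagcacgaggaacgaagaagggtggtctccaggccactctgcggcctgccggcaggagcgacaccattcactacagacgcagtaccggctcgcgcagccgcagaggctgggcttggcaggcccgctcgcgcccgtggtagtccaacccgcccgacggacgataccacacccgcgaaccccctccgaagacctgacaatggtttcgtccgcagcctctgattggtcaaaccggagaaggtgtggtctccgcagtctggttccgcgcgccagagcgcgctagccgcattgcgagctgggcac
Ddx21 (chr10:62602249-62602548, minus strand): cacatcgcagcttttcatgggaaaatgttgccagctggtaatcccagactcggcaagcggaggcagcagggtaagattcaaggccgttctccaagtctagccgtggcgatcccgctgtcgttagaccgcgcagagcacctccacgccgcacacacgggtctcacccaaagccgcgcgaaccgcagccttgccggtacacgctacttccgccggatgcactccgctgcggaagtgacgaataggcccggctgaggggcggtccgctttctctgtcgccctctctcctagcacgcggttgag
Nhp2 (chr11:51619523-51619822, plus strand): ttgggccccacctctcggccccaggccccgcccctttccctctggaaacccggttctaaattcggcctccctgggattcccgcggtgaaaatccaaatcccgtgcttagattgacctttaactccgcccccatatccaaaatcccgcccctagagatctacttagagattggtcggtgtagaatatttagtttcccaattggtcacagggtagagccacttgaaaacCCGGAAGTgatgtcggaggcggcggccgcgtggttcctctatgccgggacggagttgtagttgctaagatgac
Nop2 (chr6:125131633-125131932, plus strand): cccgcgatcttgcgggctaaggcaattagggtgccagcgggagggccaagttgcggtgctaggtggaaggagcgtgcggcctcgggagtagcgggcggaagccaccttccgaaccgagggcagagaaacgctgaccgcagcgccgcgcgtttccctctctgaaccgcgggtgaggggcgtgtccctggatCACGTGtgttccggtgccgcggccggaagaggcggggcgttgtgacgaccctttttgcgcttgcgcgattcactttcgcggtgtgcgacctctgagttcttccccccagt
Mybbp1a (chr11:72441077-72441376, plus strand): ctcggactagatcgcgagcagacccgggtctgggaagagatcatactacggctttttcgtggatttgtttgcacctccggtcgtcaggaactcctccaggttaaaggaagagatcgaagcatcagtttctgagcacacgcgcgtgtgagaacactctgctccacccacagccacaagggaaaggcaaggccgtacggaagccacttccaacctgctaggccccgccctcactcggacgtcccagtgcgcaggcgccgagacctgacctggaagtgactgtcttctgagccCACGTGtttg
Pes1 (chr11:3963725-3964024, plus strand): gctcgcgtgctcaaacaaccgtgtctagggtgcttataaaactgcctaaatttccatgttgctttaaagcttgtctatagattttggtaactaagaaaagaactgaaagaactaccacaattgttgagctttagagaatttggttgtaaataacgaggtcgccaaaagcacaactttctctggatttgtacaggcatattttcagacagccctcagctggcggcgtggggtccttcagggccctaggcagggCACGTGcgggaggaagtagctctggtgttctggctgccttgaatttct
Nop58 (chr1:59684756-59685055, plus strand): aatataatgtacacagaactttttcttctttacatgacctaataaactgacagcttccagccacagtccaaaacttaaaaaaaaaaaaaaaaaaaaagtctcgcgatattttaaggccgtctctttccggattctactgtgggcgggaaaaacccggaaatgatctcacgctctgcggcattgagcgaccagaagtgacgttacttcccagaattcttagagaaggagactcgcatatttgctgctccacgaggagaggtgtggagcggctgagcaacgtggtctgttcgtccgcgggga
Utp20 (chr10:88826765-88827064, minus strand): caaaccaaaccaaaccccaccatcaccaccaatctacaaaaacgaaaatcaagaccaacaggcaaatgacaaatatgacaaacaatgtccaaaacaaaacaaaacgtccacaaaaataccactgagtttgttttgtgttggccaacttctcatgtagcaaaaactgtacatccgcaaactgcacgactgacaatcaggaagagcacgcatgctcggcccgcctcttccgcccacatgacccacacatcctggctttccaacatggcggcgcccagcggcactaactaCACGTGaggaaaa

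Of the 37 genes, 32 had a window, and Bop1, Fbl, Npm1, Rrs1 and Tbl3 had none. The E-box was in the windows of 6 of the 32, 18.75%, beside 8.91% of 17492 genes with a window: Imp4, Mybbp1a, Nop2, Pes1, Utp20 and Wdr43. In the windows shown, its first base stood 60 bases before the start in Nop2, and at base 3 of the transcript in Pes1, base 38 in Utp20 and base 41 in Mybbp1a. Utp20, which ran against the others, and Imp4, with groups that overlapped, held the same letters as the called genes Nop2, Mybbp1a and Pes1. The ETS motif was also in 6 of the 32, 18.75%, beside 5.69% of genes: Ebna1bp2, Gar1, Heatr1, Nhp2, Nip7 and Pwp2. In Nhp2 it began 23 bases before the start. The palindromic NRF1 motif and the M-box were in 0 of the 32, beside 1.47% and 0.755% of genes. No binding was measured, so these matches are descriptions of the letters.

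The DSS arrays were set against the control arrays to ask how crypts on day 2 of DSS differ from untreated crypts. None of the 33 genes was called in either direction by limma, beside 0% of all genes higher and 0% lower, and the smallest adjusted p over all 7456 genes was 0.198. At an unadjusted p under 0.05, 5 of the 33 were lower and 0 were higher, beside 1.45% and 1.06% of all genes. Of the 33 log2 changes, 28 were below 0, with a median of -0.19 and a range of -0.64 to 0.55, beside a median of 0.00 over all genes. Both DSS arrays lay below both control arrays for 14 genes, 42.4%, against 13.7% of all genes, and above them for 2 genes, against 12.8%. Those were Tbl3, at 0.55 ± 0.30, and Utp20, at 0.41 ± 0.26 (log2 change and SE).

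The 5 genes at an unadjusted p under 0.05 were Gnl3, Nop56, Wdr12, Nip7 and Nop58. Gnl3 had the smallest p, with a log2 change of -0.64 ± 0.16 (SE, 95% interval -1.01 to -0.28, unadjusted p = 0.00363, adjusted p = 1.000). Nop56 followed at -0.58 ± 0.19 and Wdr12 at -0.54 ± 0.18, while Nip7 had -0.43 ± 0.18 and Nop58 -0.42 ± 0.18 (SE). For all 5 genes the 2 DSS arrays were below the 2 control arrays. Of the genes called in tumors against controls, Pes1 had a log2 change of -0.06, Rrs1 -0.17, Nop2 -0.18, Ddx21 -0.22, Mybbp1a -0.27, Nhp2 -0.29 and Rrp1b -0.51 in DSS against control, none of them called. Among probe sets that passed the filter, those of Ddx21, Mybbp1a and Ncl disagreed in sign between DSS and control. Below the filter, further probe sets of Nip7 (0.11), Heatr1 (0.21), Ebna1bp2 (0.01) and Polr1a (-0.02 and -0.10) differed in sign from the tested ones. Npm1 (0.08) and Polr1a (0.07) were near 0 with overlapping groups.

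The 2 control arrays bear on this comparison. Control array 1 read above control array 2 for 26 of the 33 genes, with a median difference of 0.30, beside 0.01 over all genes, while the median difference between replicates was 0.06 for tumors and -0.04 for DSS. Taken by replicate number, the median change in DSS against control was -0.36 for replicate 1 (27 of 33 below 0) and -0.08 for replicate 2 (18 of 33 below 0). Without control array 2 the median was -0.39, and without control array 1 it was -0.08. The same arrays move the tumor comparison, with a median of 0.77 without control array 1 and 0.37 without control array 2. Control array 1 also carried 1 of the 2 high poly-A readings.

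The tumor arrays were then set against the DSS arrays. The control arrays are not part of the difference here, but the comparison shares the tumor arrays with the first and the DSS arrays with the second, so it is no independent evidence. Of the 33 genes, 20 were called higher in tumors, 60.6% against 14.9% of all genes, and 1 was called lower, 3.03% against 11.3%. Both tumor arrays lay above both DSS arrays for 30 genes, against 35.3% of all genes, and below them for Utp20, against 30.7%. At an unadjusted p under 0.05 the counts were 24 higher and 1 lower, against 21.4% and 17.2%. The median log2 change was 0.80, beside 0.04 over all genes, and the range was -1.09 to 1.61. With each array centred on its median, 9 of the 33 and 701 of all 7456 genes were called higher, and 29 of the 33 changes were above 0. The split of all calls moved with that centring to 701 higher and 1258 lower, beside 1109 higher and 843 lower as deposited, and to 966 higher and 989 lower with quantile normalization.

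By role, all 3 box C/D proteins and all 4 tested box H/ACA proteins were called higher than on the DSS arrays. Nop56 had the highest log2 change of the 33, 1.61 ± 0.19 (SE, adjusted p = 0.000749), or 3.06 times the DSS level on the same scale. Its partners Nop58 and Fbl had log2 changes of 0.63 ± 0.18 (SE, adjusted p = 0.0356) and 0.81 ± 0.19 (SE, adjusted p = 0.0180). Among the H/ACA genes Nhp2 had 1.13 ± 0.15 (SE, adjusted p = 0.00155) and Nolc1 1.34 ± 0.35 (SE, adjusted p = 0.0270), with Gar1 at 0.70 and Nop10 at 0.52. Of the 10 small subunit genes, 3 were called higher, namely Wdr75 at 1.05 ± 0.30 (SE, adjusted p = 0.0337), Heatr1 at 0.86 ± 0.24 (SE, adjusted p = 0.0311) and Wdr43 at 0.65 ± 0.19 (SE, adjusted p = 0.0356). Utp20 was the 1 gene called lower, at -1.09 ± 0.26 (SE, adjusted p = 0.0188). Tbl3, highest of this role in tumors against controls, had 0.41 against DSS and missed the threshold. Polr1a had 0.57 ± 0.26 (SE, adjusted p = 0.141) and was not called. Below the filter, further probe sets of Heatr1 (-0.20) and Ebna1bp2 (-0.39) differed in sign from the tested ones against DSS. That of Wdr75 gave 0.01, and the others shared the sign. Against controls those of Wdr75 (-0.14) and Ebna1bp2 (-0.38) differed in sign, besides that of Pes1.

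Of the 10 large subunit genes, 7 were called higher against DSS. Rrp1b, at a log2 change of 1.34 ± 0.24 (SE, adjusted p = 0.00581), and Rrs1 at 1.21 ± 0.19 (SE, adjusted p = 0.00302) led, followed by Nop2 at 1.11 ± 0.18 (SE, adjusted p = 0.00383). Nop16 had 0.89, Pes1 0.80, Wdr12 0.77 and Nip7 0.71. Bop1, another PeBoW subunit, had 0.68 ± 0.23 (SE, adjusted p = 0.0589) and missed the threshold, as did Ftsj3 at 0.93 and Ebna1bp2 at 0.36. Of the multifunctional proteins Ddx21 at 1.25 ± 0.19 (SE, adjusted p = 0.00237), Mybbp1a at 1.21 ± 0.20 (SE, adjusted p = 0.00383) and Gnl3 at 1.03 ± 0.16 (SE, adjusted p = 0.00287) were called, whereas Ncl at 0.46 ± 0.17 (SE, adjusted p = 0.0747) and Npm1 at -0.08 ± 0.18 (SE, adjusted p = 0.764) were not. The change of Gnl3 in tumors was 0.38 against controls and 1.03 against DSS, with the DSS arrays below the control arrays.

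**Figure D3:**
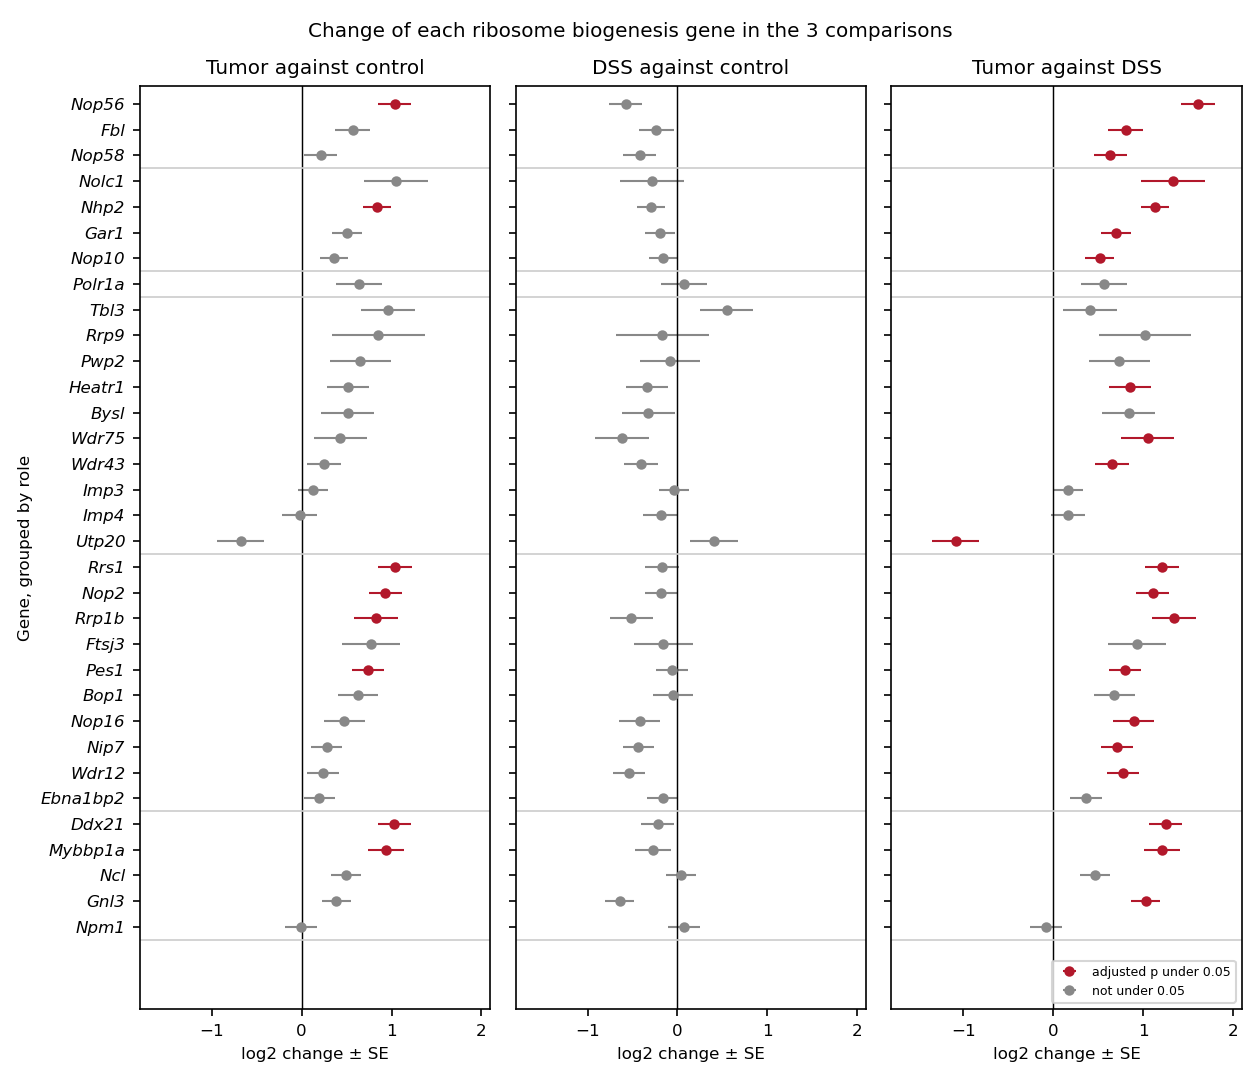
Log2 change (x axis) of each of the 33 genes (rows, by role) in tumor against control, DSS against control and tumor against DSS, with the group named first minus the other. Points are estimates, bars are 1 SE, and red marks an adjusted p under 0.05. Red points number 8, 0 and 21, and Utp20 is the 1 red point left of 0.

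Of these 21 calls, 8 held under every alternative where the gene was tested: Ddx21, Gnl3, Mybbp1a, Nhp2, Nop2, Nop56, Rrp1b and Rrs1. The count of genes called higher was 8 without DSS array 1, beside 551 of all 7400 genes then tested, and 10 without DSS array 2, beside 673 of 7403. It was 10 without tumor array 1, beside 756 of 7159, and 14 without tumor array 2, beside 426 of 7161. Utp20 missed the threshold without tumor array 1 (-0.72) and without DSS array 2 (-0.88). The remaining 12 calls each ended without at least 1 array and kept their sign. Without DSS array 1 all 12 missed the threshold, at log2 changes of 0.84 for Pes1, 0.69 for Wdr12, 0.71 for Fbl, 0.69 for Gar1, 0.67 for Nip7, 0.95 for Nop16, 1.23 for Nolc1, 0.77 for Heatr1, 0.82 for Wdr75, 0.51 for Nop58, 0.49 for Wdr43 and 0.56 for Nop10. Without DSS array 2 the same genes other than Wdr75 missed it, at 0.48 for Nop10 to 1.44 for Nolc1. Without tumor array 1 those other than Gar1 and Heatr1 missed it, at 0.38 for Nop10 to 1.36 for Nolc1. Without tumor array 2 Wdr12 (0.78), Gar1 (0.59), Nolc1 (1.31), Heatr1 (0.68), Wdr43 (0.71) and Nop10 (0.65) missed it. Nop10 also missed it without either control array (0.52 each), and its call held in 8 of 19 settings. Median centring ended the calls of the 12 other than Nolc1, at 0.28 for Nop10 to 0.81 for Wdr75. With no filter those of Nolc1, Heatr1, Wdr75, Wdr43 and Nop10 ended, and with the poly-A term those of Nip7, Wdr75, Nop58, Wdr43 and Nop10. Nop58 and Wdr43 missed the threshold with quantile normalization, Nop58 and Nop10 with no intensity trend, and Nop10 with only the 2 groups compared.

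Beyond the set, 97 other ribosome biogenesis genes were tested, from a list of 119 of polymerase I factors, small and large subunit processing factors, snoRNP assembly factors and the exosome. In tumors against controls 7 were called higher, 7.22%, below the 12.9% of all genes, and 0 lower, beside 9.75%. At an unadjusted p under 0.05, 25 were higher and 2 lower, beside 20.1% and 16.5% of all genes. The median change of the 97 was 0.26, beside 0.52 for the 33 genes and 0.05 for all genes. Ltv1, a small subunit export and maturation factor, read 1262 and 1385 on the tumor arrays, 597 and 545 on the DSS arrays and 772 and 618 on the control arrays. Ddx18, a nucleolar RNA helicase, read 1007 and 1064 on the tumor arrays, 511 and 441 on the DSS arrays and 632 and 471 on the control arrays. Ruvbl1, an ATPase that helps assemble snoRNPs, read 571 and 568 on the tumor arrays, 237 and 259 on the DSS arrays and 367 and 253 on the control arrays. The tumor arrays were the highest of the 6 for all 3 genes, with log2 changes against controls of 0.92 ± 0.18 (SE, adjusted p = 0.00859) for Ltv1, 0.90 ± 0.19 (SE, adjusted p = 0.0135) for Ddx18 and 0.86 ± 0.21 (SE, adjusted p = 0.0222) for Ruvbl1. Without control array 2, 0 of the 96 then tested were called higher (0.76, 0.70 and 0.61 for these 3), 2 were called without tumor array 2 (not Ddx18 at 0.61 or Ruvbl1 at 0.87), 3 without tumor array 1 (not Ruvbl1 at 0.86) and 4 without DSS array 1. Fewer of all genes were called higher as well when each of these arrays was left out. Median centring left 2 of the 97 called higher and 2 called lower, beside 649 higher and 1225 lower of all genes.

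Against DSS, 25 of the 97 were called higher in tumors, 25.8% beside 14.9% of all genes, and 0 lower, beside 11.3%. At an unadjusted p under 0.05, 43 were higher and 3 lower, beside 21.4% and 17.2% of all genes. The median change of the 97 was 0.43. The log2 change was 1.19 ± 0.18 (SE, adjusted p = 0.00245) for Ltv1, 1.10 ± 0.19 (SE, adjusted p = 0.00527) for Ddx18 and 1.14 ± 0.21 (SE, adjusted p = 0.00625) for Ruvbl1. The count was 3 without DSS array 1, 9 without DSS array 2, 11 without tumor array 2, 12 without tumor array 1 and 5 with median centring, and Ddx18 missed the threshold without tumor array 2 (0.80). In DSS against controls none of the 97 was called by limma, beside 0% of all genes, and the median was -0.13. Of the 97, 6 were lower and 0 higher at an unadjusted p under 0.05, beside 1.45% and 1.06% of all genes. For 32 of the 97 both DSS arrays lay below both control arrays, against 13.7% of all genes, and for 4 above them, against 12.8%. The smallest p were those of Utp3, a small subunit processome factor, at -0.63, and Rpf2, which acts with Rrs1, at -0.55.

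**Figure D4:**
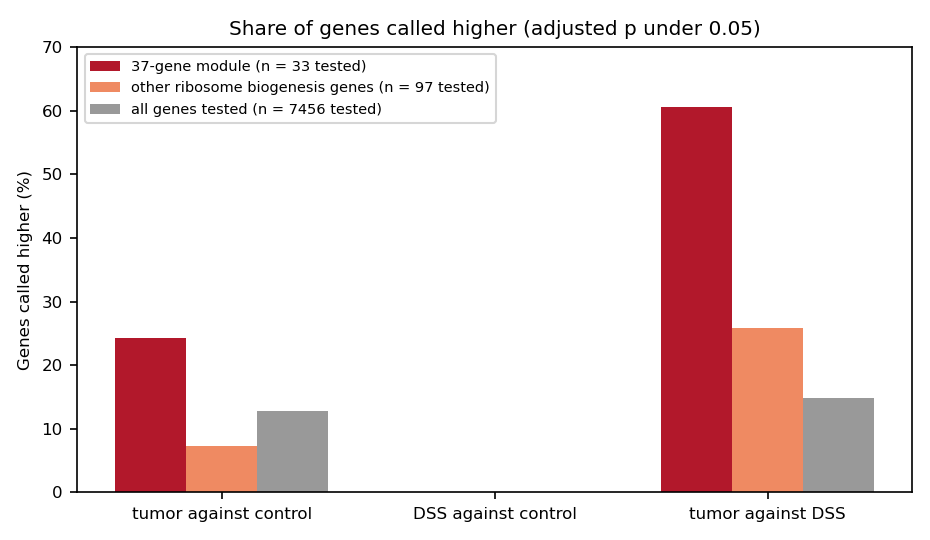
Share of genes called higher (y axis, percent) at an adjusted p under 0.05 in tumor against control, DSS against control and tumor against DSS. Bars are the 33 tested genes of the set (24.2%, 0% and 60.6%), the 97 other ribosome biogenesis genes (7.22%, 0% and 25.8%) and all 7456 genes (12.9%, 0% and 14.9%).

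Genes of the MYC network were looked up beside the set, 13 listed and 12 tested. Against controls 3 were called higher in tumors, 25% beside 12.9% of all genes, and 1 lower, 8.33% beside 9.75%. Against DSS 4 were called higher, 33.3% beside 14.9%, and 2 lower, 16.7% beside 11.3%. In DSS against controls 0 were called, beside 0% of all genes. Only the called genes are named. Myc itself read 635 and 776 on the tumor arrays, 179.5 and 243 on the DSS arrays and 332 and 255 on the control arrays. Its tumor arrays were the highest, with log2 changes of 1.22 ± 0.23 (SE, adjusted p = 0.00683) against controls and 1.67 ± 0.23 (SE, adjusted p = 0.00157) against DSS. In DSS against controls Myc had a log2 change of -0.45 ± 0.23 (SE, adjusted p = 1.000) and was not called. Mycl, a paralog of Myc, was called higher in tumors at 1.50 ± 0.20 (SE, adjusted p = 0.00148) against controls and 1.84 ± 0.20 (SE, adjusted p = 0.000538) against DSS. Both calls held under every alternative run, as did those of Myc. Mycn, the other paralog, had 1.09 ± 0.23 (SE, adjusted p = 0.0130) and 1.08 ± 0.23 (SE, adjusted p = 0.0119), and missed the threshold without tumor array 1 (0.92 and 0.91). It also missed it without control array 2 (1.06) against controls and without DSS array 1 (1.00) against DSS. Max, the shared partner of the family, was called lower against controls at -0.81 ± 0.21 (SE, adjusted p = 0.0269), but not without tumor array 2 (-0.64) or control array 2 (-0.68), or with the poly-A term (-0.79). Against DSS, Mxd3 was higher at 0.89, and Mxd4 (-0.74) and Mlxip (-0.83), further members of the network, were lower. Each of these 3 calls ended without DSS array 1 (0.93, -0.59 and -1.08) and without DSS array 2 (0.86, -0.88 and -0.58), that of Mxd4 also without tumor array 2 (-0.60) and that of Mlxip without tumor array 1 (-0.55) or either control array (-0.83 in each case). The call of Mxd3 also ended with quantile normalization (0.67), median centring (0.66), no filter (0.89) and the poly-A term (0.90). That of Mxd4 ended with the mean over probe sets (-0.54) and the poly-A term (-0.71). That of Mlxip ended with the pseudocount at the median of all values (-0.65), and at -0.83 with no filter, each probe set on its own, no intensity trend and only the 2 groups compared, so it held in 8 of 18 settings.

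Proliferation genes and cell type markers were looked up as well. Of 24 tested proliferation genes, 23 were called higher in tumors against controls, 95.8% beside 12.9% of all genes. Against DSS 21 were called higher, 87.5% beside 14.9% of all genes. In DSS against controls 0 were called, with 10 changes above 0, 14 below 0 and a median of -0.07. The summed intensity of the 25 measured was 32466 and 32902 on the tumor arrays, 14020.3 and 13537 on the DSS arrays and 16530.4 and 14566 on the control arrays. The tumor arrays were thus apart from the rest, and control array 1 was the higher of the controls, as for the set. Fibroblast markers summed to 5572 and 16981 on the tumor arrays, 4168 and 7804 on the DSS arrays and 3129 and 6309 on the control arrays. Leukocyte markers summed to 5535 and 11508 on the tumor arrays, 2011 and 2971 on the DSS arrays and 2321 and 2911 on the control arrays. Of the fibroblast markers, 6 and 14 of 15 lay above the median on the tumor arrays, against 12 on each other array. For leukocytes it was 3 and 11 of 18 on the tumor arrays, against 2 to 6 on the others. These sums rest on few genes on tumor array 1, where Lyz2 (2755) and Cd14 (2020.3) made up most of the leukocyte sum and Vim (3477) and Fn1 (719) most of the fibroblast sum. The collagen genes of the fibroblast list read lower on tumor array 1 than on any DSS or control array, as with Col3a1, at 307 and 2278 on the tumor arrays, 1065 and 1909.9 on the DSS arrays and 859.8 and 1580.3 on the control arrays. Endothelial markers summed to 499 and 1635 on the tumor arrays, 306 and 575 on the DSS arrays and 245 and 520.3 on the control arrays, and smooth muscle markers to 843 and 1728 on the tumor arrays, 1781 and 3871 on the DSS arrays and 1370.2 and 4084 on the control arrays. No marker read 0 on all arrays. The 33 genes' median log2 intensity was 9.60 and 9.45 on the tumor arrays, 8.78 and 8.71 on the DSS arrays and 9.11 and 8.81 on the control arrays. The ratio of 3′ to 5′ actin probe sets, a measure of RNA integrity, was 0.95 and 1.04 (log2) on the tumor arrays, 1.59 and 1.38 on the DSS arrays and 1.20 and 1.63 on the control arrays. The part of cell makeup, proliferation and RNA integrity in the results was not tested.

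**Figure D5:**
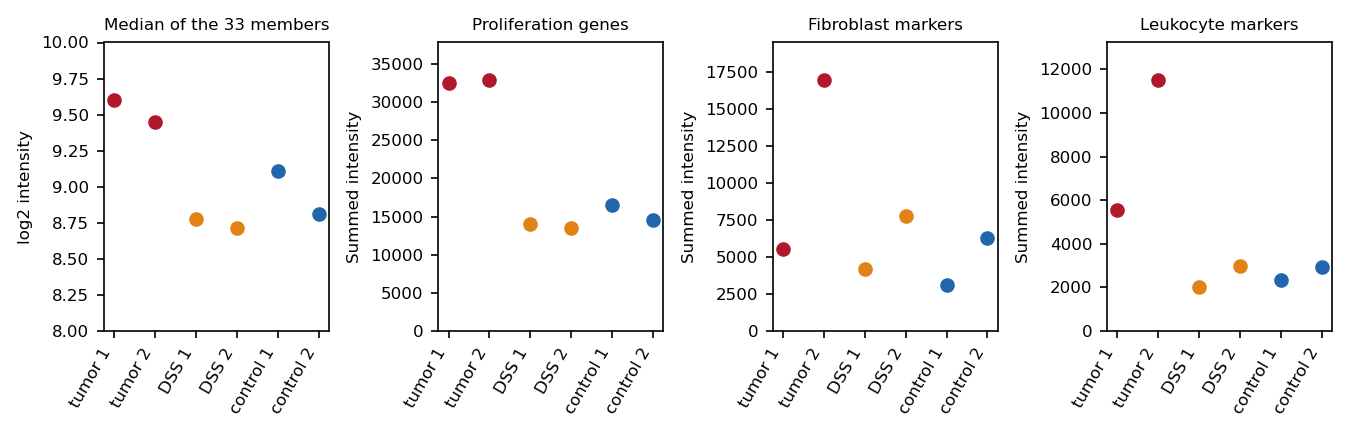
Values on each array (x axis): the median log2 intensity of the 33 genes (axis from 8 to 10), and the summed intensities of proliferation genes, fibroblast markers and leukocyte markers (axes from 0). Red points are tumor, orange DSS and blue control arrays; proliferation sums of 32466 and 32902 on the tumor arrays lie apart, while fibroblast and leukocyte sums are highest on tumor array 2.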

How the data were processed

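RNA of the crypts was labelled as biotin cRNA from 2 µg of total RNA, per the labels' protocols, and hybridized to Affymetrix arrays. The deposited values are linear signal intensities made with MAS5, per the submitters' processing notes; its version and settings are not given in the sources used here. The table held 22690 probe sets. After 64 control probe sets were left out, 20380 had 1 gene symbol, 691 several and 1555 none, and only the first kind was named, with symbols updated to RefSeq (GRCm38.p6) through gene IDs that matched for 99.9% of them.

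Intensities were analysed as log2(intensity + 17.8), where 17.8 is the 25th percentile over the whole table. A probe set was kept if at least 2 arrays placed it over their median, and each gene was represented by its brightest kept probe set, which left 7456 genes. One linear model over all 6 arrays was fitted with limma 3.58.1 in R 4.3.3 (lmFit, eBayes with an intensity trend), with 2-sided p-values, Benjamini-Hochberg adjustment over all genes and a threshold of 0.05. The 3 comparisons share arrays. The fit was also run on simulated data with known changes and independent noise. That run checks the calculation only, since its noise was not that of these arrays. Figures were drawn with matplotlib 3.10.9.

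Members and lists were chosen with earlier results of these data known. Values on every array were given for members called in any comparison and for the 6 of smallest p in each comparison. They were also given for members whose probe sets that passed the filter differ in sign in tumors against controls. Of the other biogenesis genes the 3 of smallest p among those called were named, or the 2 of smallest p where none was, and of the MYC network Myc and any called gene. Tbl3, Ncl, Bop1 and other members are named besides so that each is accounted for. Alternatives changed the normalization, pseudocount, filter, probe set rule, trend, arrays in the fit, replicate block, a term for high poly-A arrays, and left out each array in turn. The labels do not say whether equal replicate numbers mark a shared batch, so the main model had no block.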

Additional observations from a re-analysis of the deposited data

How the results depend on the processing

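None of the called members, or of the 6 of smallest p in DSS against controls, changed sign under any alternative run. Of the settings tried on the 8 genes called in tumors against controls, 130 of 150 kept the call, and for the 21 called in tumors against DSS 323 of 392 did. Median centring gave 4 genes called higher and 1 lower and a median of 0.27 in tumors against controls, and 9 called higher and a median of 0.57 in tumors against DSS. The excess of the 33 genes' median over that of all genes was unchanged by centring by construction (0.47, and 0.76 against DSS). A pseudocount at the median of all values gave a median of 0.60 in tumors against DSS. Keeping only probe sets above the 75th percentile left 18 genes tested and 13 called higher in tumors against DSS.

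Leaving out 1 array at a time gave 5 to 9 called higher, 0 to 1 lower and medians of 0.37 to 0.77 in tumors against controls. In DSS against controls the medians ran from -0.39 to -0.078. In tumors against DSS they ran from 0.71 to 0.82. The lone array left in a group was assumed to vary like the others.

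The labels do not state whether arrays of the same replicate number share a batch. Poly-A readings were higher on array 1 than on array 2 in all 3 groups. Sums of fibroblast, leukocyte, endothelial and smooth muscle markers were higher on array 2 in all 3 groups. A shared batch was not tested. Deviations of same-numbered arrays correlated at 0.0771 (tumor and control), 0.447 (DSS and control) and 0.442 (tumor and DSS) over genes. With the replicate block in the fit of all 3 groups, 10 genes were called higher in tumors against controls, beside 1100 of all 7456 genes. In tumors against DSS 21 were called higher, beside 1250 of all genes. In DSS against controls 0 were called, beside 0 of all genes. With the replicate block and only the 2 groups compared, 2 genes were called lower in DSS against controls (Gnl3 and Wdr75), and 52 higher and 69 lower of all genes.

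Of all genes, counts called higher in tumors against controls were 303 without tumor array 2 and 510 without control array 2, and 520 with the 75th percentile filter. Lower calls were 399 and 342 without those arrays. In tumors against DSS, higher calls over all genes were 701 with centring, 597 with the 75th percentile filter, 426 without tumor array 2, 551 without DSS array 1 and 673 without DSS array 2. Lower calls were 517, 371 and 448 without those arrays and 1304 with the block and only those 2 groups. For the other biogenesis genes, quantile normalization, no filter and the 75th percentile filter gave 4, 3 and 4 higher calls in tumors against controls. These were of 97, 99 and 46 tested, beside 882 of 7456, 899 of 12393 and 520 of 4160 of all genes. Against DSS these settings gave 8, 11 and 11, beside 966, 1031 and 597 of all genes. The block with only the tumor and DSS groups gave 41 of 97 against DSS, beside 1632 of 7456. The cause of these differences was not tested. The number of arrays, 2 a group, limits the precision. Rrp9 at 0.85 ± 0.52 and Polr1a at 0.64 ± 0.26 (log2 change and SE) in tumors against controls missed the threshold. Polr1a was called higher with no intensity trend. Both genes had low intensities and passed the filter only with a tumor array, and why they missed the threshold was not tested.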

Other observations

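Ribosomal protein genes, a list chosen after values were seen, gave other values than the assembly genes. Of 45 tested cytosolic ribosomal protein genes, 0 were called higher by limma in tumors against controls, beside 12.9% of all genes. Only 1 was called lower, 2.22%, beside 9.75% of all genes. At an unadjusted p under 0.05, 1 was higher and 1 lower, beside 20.1% and 16.5% of all genes. The 45 genes had a median log2 change of -0.13. Their median was -0.27 in tumors against DSS and 0.12 in DSS against controls. Both tumor arrays lay below both DSS arrays for 25 of the 45, 55.6%, against 30.7% of all genes, and above them for 3, 6.67%, against 35.3%. The 1 gene called lower was Rps4l, a paralog of the small subunit protein gene Rps4x, at 3.82 and 63.3 on the tumor arrays, 790.1 and 851 on the DSS arrays and 819 and 695 on the control arrays. The strain of the mice is not given in the sources used here, so a difference in strain between the tumor mice and the others was not tested for this gene. Of 74 mitochondrial ribosomal protein genes, 0 were called higher in tumors against controls, beside 12.9% of all genes. Lower calls numbered 4 (Mrpl51, Mrps21, Mrps24 and Mrps6), 5.41%, below the 9.75% of all genes. The median change of the 74 was -0.11. Whether these lists differ from the assembly genes was not tested.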
